A study of Mus musculus with 30 samples.

Results

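The endoplasmic reticulum (ER) genes examined here are 36 genes that act on proteins entering the secretory pathway. They were chosen by name, as the rows of the count table whose gene name is one of 36 listed symbols, and all 36 were found among the 14173 genes of the table, with 1 row each. By role they are 15 chaperones and folding enzymes, 7 genes of ER degradation, 3 genes of unfolded protein response signalling and 11 genes of translocation. The 3 genes, grouped as sensors below, are the sensors *Ern1* and *Atf6* and the transcription factor *Xbp1*. Messenger RNA of the 36 genes was counted in the livers of 30 male C57BL6/J mice, 6 per diet. The QuantSeq 3′ method was used, which counts reads near the end of each transcript. All mice were fed their diet for 12 weeks from the age of 12 weeks and were killed at 6 months of age after a 4 h fast. Cas-20% (NP in the labels) held 20% casein, with 0.57 g methionine and 0.41 g cysteine per 100 g. Cas-5% (LP) held 5% casein, with 0.15 g and 0.1 g. Soy-20% (20Soy) held 20% soy protein, with 0.22 g of each amino acid. Soy-20% + SAA (20Soy_SAA) was the same soy level with added sulfur amino acids, at 0.58 g methionine and 0.41 g cysteine. Soy-10% (10Soy) held 11.5% soy protein according to the labels, with 0.13 g of each. Before the age of 12 weeks, the paper states, casein-fed mice were kept on Cas-20% and soy-fed mice on Soy-20%. Cas-20% and Soy-20% mice then stayed on their diet, and mice of the other diets were switched. Between the casein diets total protein and sulfur amino acids fell together, and the part of each cannot be told apart. The soy diets allow the supplement to be read at 1 protein level, and Soy-10% to be set against either soy control. Soy-10% held less protein and less of both sulfur amino acids than either control. The part of each cannot be told apart there either.

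Liver cells secrete albumin, clotting factors and lipoproteins, and every one of these proteins passes through the ER. The nascent chain is carried by the signal recognition particle to the Sec61 channel, the signal peptidase complex removes its signal peptide, and chaperones and disulfide isomerases fold it. Chains that do not fold are moved back to the cytosol and degraded. When unfolded chains accumulate, the sensors IRE1α (*Ern1*) and ATF6 raise the transcription of chaperone and degradation genes, in part through the transcription factor XBP1 and a promoter sequence called the ER stress response element.

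That element, CCAAT and CCACG with 9 bases between them (ERSE), or ATTGG and CCACG with 1 base between them (ERSE-II), was searched on both strands in the RefSeq promoter windows of GRCm38.p6, from 250 bases before to 50 bases after the annotated gene start. A window was found for 29 of the 36 genes. ERSE was present in 9 of them, *Hspa5*, *Hsp90b1*, *Pdia6*, *Calr*, *Canx*, *Dnajc3*, *Creld2*, *Syvn1* and *Derl3*, and in 39 of all 32851 windows (0.119%). ERSE-II was present in *Herpud1* and *Dnajb11*, and in 12 of all windows (0.0365%). The *Dnajb11* match lies after the gene start. CCACG, which is part of both elements, occurred in 23 of the 29 member windows and in 32.8% of all windows. The elements shown are those of *Hspa5*, the classic target, of *Derl3*, *Dnajc3* and *Herpud1*, called after casein restriction, of *Syvn1*, called over the 5 diets, and of *Creld2*, which was not called. Each stretch is written 5′ to 3′ on the gene's strand with 20 bases on either side, and capitals mark the 5-base blocks of the element.
Hspa5: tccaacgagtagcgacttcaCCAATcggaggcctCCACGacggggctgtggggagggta
Dnajc3: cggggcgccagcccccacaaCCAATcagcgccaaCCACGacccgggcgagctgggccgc
Creld2: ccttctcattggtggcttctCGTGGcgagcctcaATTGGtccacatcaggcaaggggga
Syvn1: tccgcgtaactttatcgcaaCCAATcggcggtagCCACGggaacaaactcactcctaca
Derl3: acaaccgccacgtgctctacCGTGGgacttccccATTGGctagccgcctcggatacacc
Herpud1: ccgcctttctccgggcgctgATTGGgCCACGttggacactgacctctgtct

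The stretches lie on the plus strand at chr2:34772005-34772063 for *Hspa5*, chr14:118937807-118937865 for *Dnajc3*, chr15:88819500-88819558 for *Creld2*, chr19:6046512-6046570 for *Syvn1*, chr10:75893222-75893280 for *Derl3* and chr8:94386357-94386407 for *Herpud1*. The element is 47 to 65 bases before the gene start in *Hspa5*, 87 to 105 in *Dnajc3*, 138 to 156 in *Derl3*, 26 to 44 in *Syvn1* and 42 to 52 in *Herpud1*. *Derl3* and *Creld2* carry it in the reverse orientation, which reads CGTGG first and ATTGG last. A match describes these letters and is not a measured binding site.

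Libraries held 7694015 to 14565542 counted reads. Levels are given as normalized counts, the authors' counts divided by the size factor of each library, and the fold changes come from edgeR's quasi-likelihood test of the raw counts, two-sided, with Benjamini-Hochberg adjustment over all genes tested. A gene is called at an adjusted p of 0.05 or less. Levels are not compared between genes. The 6 hepatocyte markers, albumin among them, summed to between 737426 and 962641 normalized counts in the 30 livers. Livers 3 to 6 of Soy-20% + SAA stood apart in how counts depended on the GC content of the last 200 bases of transcripts, with slopes of 0.05 to 0.19 log2 units per 10% GC, against −0.03 to −0.02 in livers 1 and 2 of that diet and −0.07 to 0.04 in the other diets. Pancreatic acinar markers, with 10 of 12 in the table, summed to 9318 in Soy-10% liver 4 and to at most 629 in any other liver.

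Over the 5 diets, 10 of the 36 genes differed by edgeR (27.8%), where 43.4% of all 12561 genes tested did. An unadjusted p under 0.05 was reached by 17 of them and by 52.3% of all genes, and DESeq2 called 15. They were 1 of 15 chaperones (*Dnajc3*), 4 of 7 genes of ER degradation (*Syvn1*, *Derl2*, *Derl3* and *Edem1*), 1 of 3 sensors (*Ern1*) and 4 of 11 translocation genes (*Sec61a1*, *Ssr3*, *Ssr4* and *Spcs3*). Without Soy-20% + SAA livers 3 to 6 the number was 5. In single comparisons of diets or of effects edgeR called 10 members, and 24 were called by edgeR in none, the overall test included. DESeq2 called 4 of those 24 in at least 1 comparison (*P4hb*, *Calr*, *Dnajb9* and *Hyou1*), which leaves 20 that neither tool called. The map of levels by liver shows how livers of the same diet differed among themselves.

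**Figure D1:**
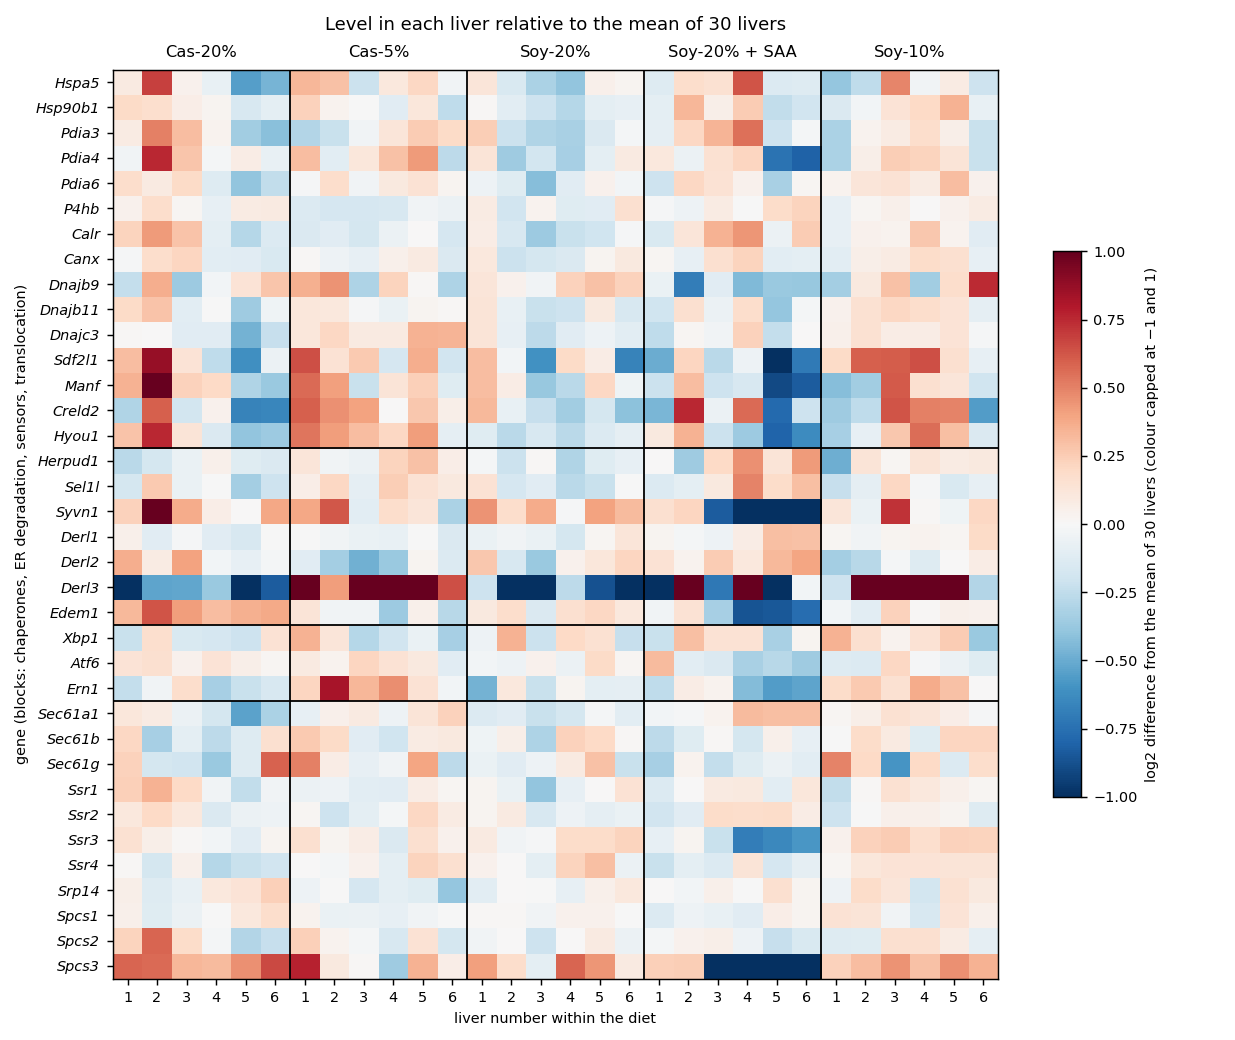
Level of each of the 36 genes (rows) in each of the 30 livers (columns, 6 per diet), as the log2 difference of the normalized count + 1 from that gene's mean over 30 livers, with colour capped at −1 and 1. *Derl3* is high in all 6 Cas-5% livers, the chaperone block is high in Cas-20% liver 2, and *Spcs3*, *Syvn1* and *Edem1* are low in Soy-20% + SAA livers 3 to 6.

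The casein comparison asked what casein restriction changed. Between Cas-5% and Cas-20%, 6 of the 36 genes were called by edgeR, 4 higher and 2 lower (16.7%), against 24.9% of all 12076 genes tested (11.6% higher and 13.3% lower), and 12 had an unadjusted p under 0.05 against 36.6%. DESeq2 called 7, the same 6 and *P4hb*. The genes called by edgeR were *Derl3*, *Ern1*, *Dnajc3* and *Herpud1*, which rose, and *Edem1* and *Derl2*, which fell. Of these, 4 belong to the 7 genes of ER degradation, 1 to the sensors and 1 to the 15 chaperones, and none of the 11 translocation genes was called by either tool. With the replicate block and the GC slope together the calls of *Ern1*, *Dnajc3*, *Herpud1* and *Derl2* were lost. The median log2 fold change of the 36 genes was 0.02, as was that of all genes tested. Livers did not overlap between the diets for *Derl3* and *Dnajc3*, higher in Cas-5%, and for *Edem1*, lower, where 5.14% of all genes lay apart in the higher direction and 7.73% in the lower.

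*Derl3* encodes derlin-3, a membrane protein that helps to move misfolded proteins out of the ER. Its normalized counts in Cas-20% livers were 5.01 at the lowest, 10.0 at the median and 12.5 at the highest. In Cas-5% livers they were 22.4, 35.99 and 62.4. Every Cas-5% liver was above every Cas-20% liver, and the gene was 4.43-fold higher after casein restriction (log2 fold change 2.15 ± 0.30 (SE), edgeR adjusted p = 5.66e-05, 6 livers per diet). The counts behind it are few, 5 to 65 raw counts per liver. Its log2 values carried the largest spread of the 36 genes within a diet (SD 0.78). The part of the low counts in that spread was not tested. The call held in all 12 fits that left out 1 liver.

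*Derl3* is also a gene of secretory cells outside the hepatocyte, so the markers of such cells were set beside it. Sums of plasma and B cell markers, with 6 of 7 in the table, were 359 to 577 in Cas-20% and 232 to 334 in Cas-5%. That difference lay mostly in *Ighm*, an immunoglobulin heavy chain, with medians of 268 and 66.3. The median of *Igkc* was 143 in Cas-20% and 140 in Cas-5%, that of *Mzb1* 5.81 and 4.18, and those of *Jchain*, *Iglc2* and *Cd79b* were higher in Cas-5%, at 12.3 against 9.29, 10.1 against 7.02 and 14.0 against 11.5. The markers of these cells therefore did not move one way. Acinar sums were 287 to 629 in Cas-20% and 164 to 349 in Cas-5%, nearly all of it *Cela1*, with medians of 432 and 260. Of the other 9 acinar markers in the table, each was at 0 in at least 5 of 6 livers of both diets. The part of these cells in the *Derl3* difference was not tested. In liver RNA as a whole, fewer cells of a type and less RNA per cell cannot be told apart.

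*Ern1* encodes IRE1α, the sensor that splices *Xbp1* mRNA. Its normalized counts were 307, 340 and 439 (lowest, median and highest) in Cas-20% and 379, 470 and 686 in Cas-5%. The diets overlapped, with 4 of 6 Cas-5% livers above all Cas-20% livers, and the rise was 1.40-fold (log2 0.49 ± 0.12, edgeR adjusted p = 0.0081). With the replicate block and the GC slope together it was 0.29 (edgeR adjusted p = 0.20). *Xbp1*, the transcription factor, had 1386, 1444 and 1815 in Cas-20% and 1279, 1477 and 2053 in Cas-5%. Its log2 fold change was 0.03 (95% interval −0.21 to 0.27). *Atf6* had 535, 567 and 591 in Cas-20% and 489, 564 and 615 in Cas-5%, a log2 fold change of 0.00 (−0.14 to 0.14). Both Cas-5% ranges spanned most of the Cas-20% range. In the soy diets *Xbp1* had medians of 1674 in Soy-20%, 1712 in Soy-20% + SAA and 1796 in Soy-10%, and *Atf6* of 527, 458 and 497. Counts of reads near the 3′ end do not show how much *Xbp1* mRNA was spliced.

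*Dnajc3*, a co-chaperone that also inhibits the translation kinase PERK, was the only one of the 15 chaperones called by edgeR after casein restriction. It had 2487, 3193 and 3480 normalized counts in Cas-20% and 3682, 3866 and 4409 in Cas-5%. No liver of one diet reached the range of the other, and the rise was 1.28-fold (log2 0.36 ± 0.09, edgeR adjusted p = 0.0048). *Herpud1*, a scaffold of the ER degradation complex, had 2201, 2422 and 2746 in Cas-20% and 2546, 2832 and 3252 in Cas-5%. It was 1.18-fold higher with overlap of the diets (log2 0.24 ± 0.08, edgeR adjusted p = 0.030). That call was lost in 6 of 12 fits that left out 1 liver, those without Cas-20% liver 1, 2, 5 or 6 or Cas-5% liver 4 or 5, where the edgeR adjusted p reached 0.076. Over the 12 fits the log2 value ran from 0.20 to 0.27. The *Herpud1* call was also lost with all 30 livers in 1 fit, with the GC covariate and with block and GC slope together, at edgeR adjusted p of 0.11, 0.12 and 0.28.

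*Edem1*, a lectin-like protein that directs misfolded glycoproteins to degradation, had 1114, 1162 and 1389 normalized counts in Cas-20% and 699, 877 and 985 in Cas-5%. All 6 Cas-5% livers lay below all Cas-20% livers, and the level fell to 0.72 of the control (log2 −0.47 ± 0.09, edgeR adjusted p = 0.00076). *Derl2*, which like *Derl3* encodes a derlin, had 1154, 1247 and 1611 in Cas-20% and 874, 1038 and 1246 in Cas-5%. Here 5 of 6 Cas-5% livers lay below every Cas-20% liver (log2 −0.34 ± 0.10, edgeR adjusted p = 0.023). The derlins thus went different ways, with *Derl3* higher, *Derl2* lower and *Derl1* at a log2 fold change of 0.02 (95% interval −0.10 to 0.14). In the single-liver fits the *Derl2* call was lost 4 of 12 times, without Cas-20% liver 3 or Cas-5% liver 2, 3 or 4, with an edgeR adjusted p of up to 0.054 and log2 values from −0.40 to −0.29 over the 12 fits.

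**Figure D2:**
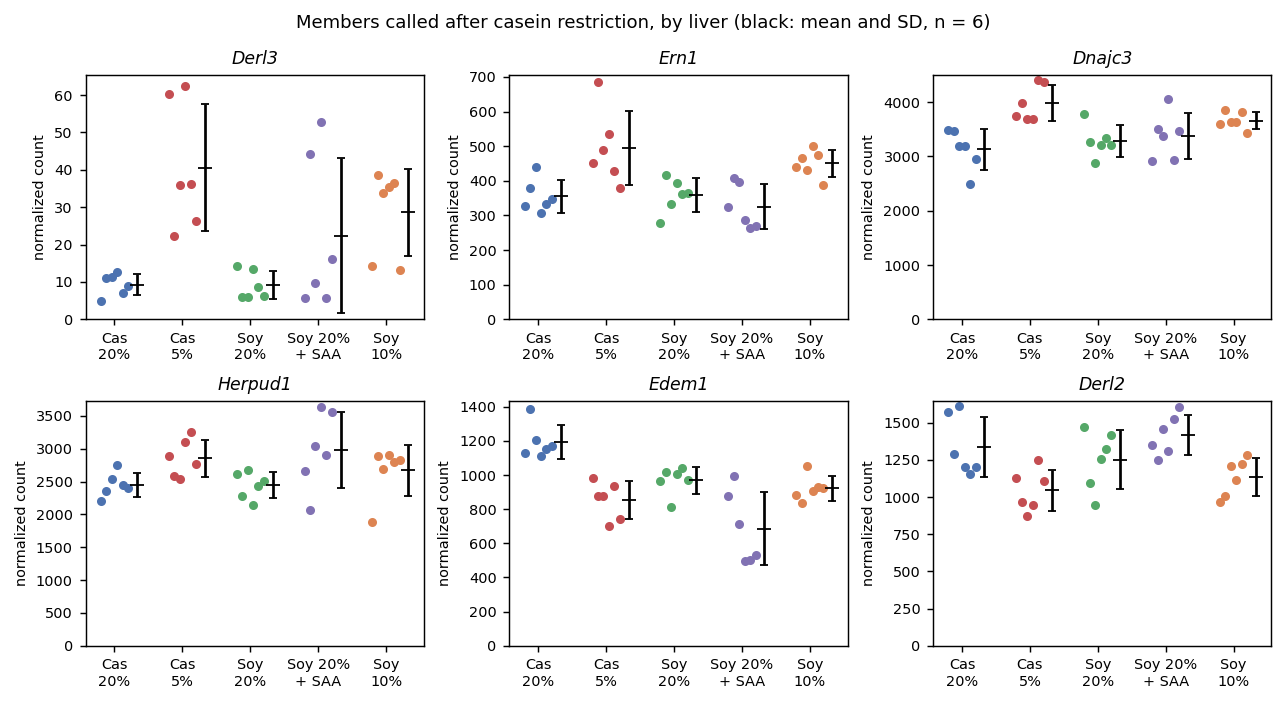
Normalized counts (vertical axes, from 0) of the 6 genes called by edgeR after casein restriction in each of 30 livers, by diet, with the mean and SD of 6 livers in black. *Derl3* and *Dnajc3* in Cas-5% lie above all Cas-20% livers, *Edem1* lies below them, and *Derl3* in Soy-20% + SAA runs from 5.59 to 52.7.

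The other 14 chaperones and folding enzymes were not called by edgeR after casein restriction, and DESeq2 called *P4hb* of them. *Hspa5* encodes BiP, the main ER Hsp70 and the usual marker of ER stress. It had 6012, 8748 and 14200 normalized counts in Cas-20% and 7589, 9827 and 11097 in Cas-5%, so the Cas-5% range lay inside the Cas-20% range. Its log2 fold change was 0.12 with a 95% interval of −0.23 to 0.48. *Creld2*, an ER disulfide isomerase, had the largest uncalled difference among chaperones, 0.45 ± 0.18 with an edgeR adjusted p of 0.084, and *P4hb*, the classic protein disulfide isomerase, had −0.16 ± 0.06 with 0.065. The log2 changes of all 15 ran from −0.19 to 0.45 with a median of 0.04, and every 95% interval lay between −1 and 1.

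Translocation genes had log2 changes of −0.28 to 0.21 after casein restriction, with a median of −0.01, and the intervals of all 11 lay between −1 and 1. The 3 with an unadjusted p under 0.05 were *Sec61a1*, the channel subunit, at 0.21 ± 0.10, *Ssr4*, a subunit of the translocon-associated protein complex, at 0.20 ± 0.08, and *Srp14*, of the signal recognition particle, at −0.18 ± 0.08. Their edgeR adjusted p were 0.13, 0.061 and 0.10.

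**Figure D3:**
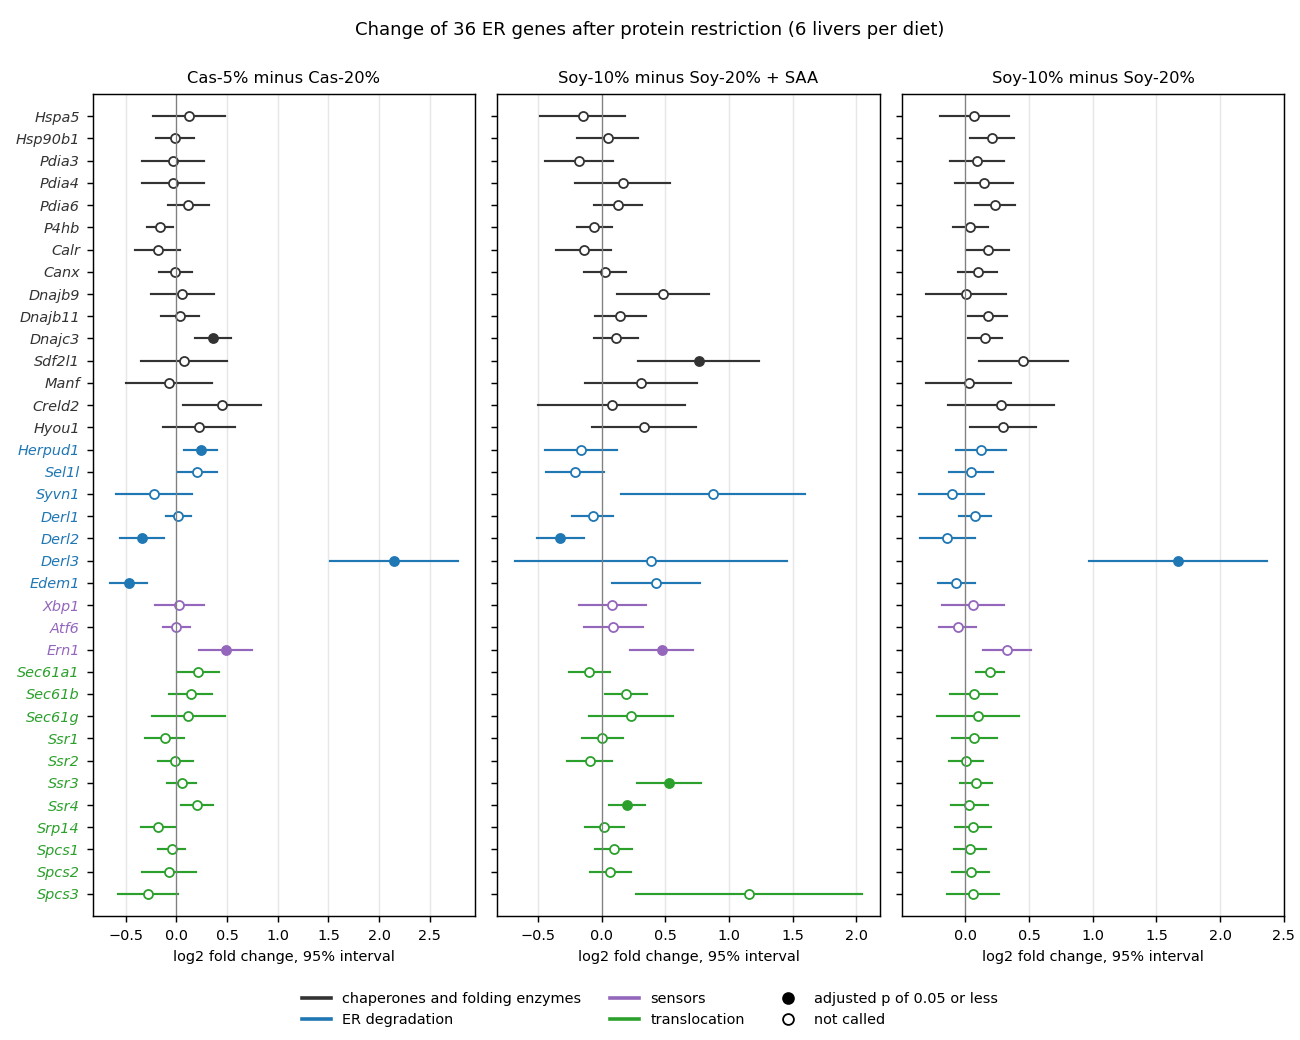
Log2 fold change (horizontal axes) with its 95% interval for the 36 genes in Cas-5% minus Cas-20%, Soy-10% minus Soy-20% + SAA and Soy-10% minus Soy-20%, 6 livers per diet, with the genes called by edgeR as filled points. The filled points number 6, 5 and 1, and *Derl3* at 2.15 and 1.67 is the point farthest to the right in the first and last panels.

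The effect of soy restriction was read against both soy controls, which share the Soy-10% livers. Against Soy-20% + SAA, the control with sulfur amino acids near those of Cas-20%, 5 of 36 genes were called by edgeR, 4 higher and 1 lower (13.9%), against 17% of all 11983 genes tested (8.51% higher and 8.47% lower). Unadjusted p values under 0.05 were reached by 10 members, and by 33.9% of all genes. *Ern1*, *Sdf2l1*, *Ssr3* and *Ssr4* were higher and *Derl2* lower in Soy-10%. With the GC slope of each library as a covariate none of the 36 was called by edgeR, and 4 had an unadjusted p under 0.05. Without Soy-20% + SAA livers 3 to 6, which leaves 2 livers of that diet, none was called and 6 had an unadjusted p under 0.05. DESeq2, with all livers and no covariate, called 6.

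*Ern1* had 263, 306 and 409 normalized counts in Soy-20% + SAA, 279, 363 and 417 in Soy-20% and 388, 453 and 502 in Soy-10%. In Soy-10%, 5 of 6 livers were above every liver of Soy-20% + SAA, and 5 of 6 were above every liver of Soy-20%. The log2 fold change was 0.47 ± 0.12 against Soy-20% + SAA (edgeR adjusted p = 0.015) and 0.33 ± 0.09 against Soy-20% (edgeR adjusted p = 0.11, unadjusted 0.0020). The former was 0.25 with the GC covariate and 0.29 without livers 3 to 6, with edgeR adjusted p of 0.27 and 0.23. Casein and soy restriction did not differ detectably in their effect on *Ern1*, with a difference of 0.01 on the log2 scale and a 95% interval of −0.36 to 0.38.

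*Derl3* differed between livers of the supplemented control. Its normalized counts were 6.03, 7.45 and 14.2 in Soy-20% livers, 5.59, 12.9 and 52.7 in Soy-20% + SAA livers and 13.3, 34.7 and 38.7 in Soy-10% livers. Of the Soy-20% + SAA livers, liver 2 had 44.2 and liver 4 had 52.7, and the others had 5.73, 9.68, 5.59 and 16.2. Plasma and B cell marker sums in those 2 livers were 619 and 320, against 254 to 500 in the other 4, and acinar sums were 389 and 424 against 186 to 387.

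Against Soy-20%, *Derl3* was the 1 member of 36 called by edgeR (2.78%), where 0.866% of all 11897 genes tested were, and 10 members had an unadjusted p under 0.05 against 12.3% of all genes. It was 3.18-fold higher in Soy-10% (log2 1.67 ± 0.33, edgeR adjusted p = 0.022), with 5 of 6 livers above every Soy-20% liver. Against Soy-20% + SAA the log2 difference was 0.38 with an interval of −0.68 to 1.45. The call was lost in 6 of 12 fits that left out 1 liver, those without Soy-20% liver 2 or 6 or Soy-10% liver 2, 3, 4 or 5, and the value ran from 1.55 to 1.84 over the 12. Without Soy-10% liver 4, the one with high acinar markers, the value was 1.60. Liver 4 itself had 35.5 normalized counts of *Derl3*, between the other Soy-10% livers. The call was also lost with all 30 livers in 1 fit (edgeR adjusted p = 0.12) and with block and GC slope together (0.095). The effect of casein restriction minus that of soy restriction against Soy-20% + SAA, 1.76 ± 0.65, was not called (edgeR adjusted p = 0.084).

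*Derl2* was the one member that edgeR called lower in both casein restriction and soy restriction with the supplemented control. Its normalized counts were 1252, 1405 and 1605 in Soy-20% + SAA and 966, 1162 and 1286 in Soy-10%, with 5 of 6 Soy-10% livers below all controls (log2 −0.32 ± 0.09, edgeR adjusted p = 0.021). Leaving out Soy-10% liver 2 or control liver 6 ended that call, and the value ran from −0.36 to −0.28 over the 12 fits without 1 liver. Against Soy-20%, whose livers had 945, 1290 and 1470, the difference was −0.14 with an interval of −0.36 to 0.07. *Sdf2l1*, which binds BiP complexes, had 113, 252 and 380 normalized counts in Soy-20% + SAA and 310, 435 and 512 in Soy-10%. It was 1.70-fold higher (log2 0.76 ± 0.22, edgeR adjusted p = 0.031), with 3 of 6 Soy-10% livers above all controls. The *Sdf2l1* call was lost in 5 of 12 fits that left out 1 liver, those without Soy-20% + SAA liver 3 or 6 or Soy-10% liver 2, 3 or 4, with log2 values from 0.61 to 0.92 over the 12. Against Soy-20% the value was 0.46 ± 0.17 with an edgeR adjusted p of 0.24.

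Against Soy-20%, all 15 chaperones had a positive log2 difference in Soy-10%, as did all 11 translocation genes, though none was called by edgeR. DESeq2 called 3 members in this comparison, *Sec61a1* beside *Derl3* and *Ern1*. The chaperone differences ran from 0.01 to 0.46 with a median of 0.16, and 7 had an unadjusted p under 0.05. The translocation differences ran from 0.01 to 0.19 with a median of 0.06, and 1 had an unadjusted p under 0.05. The median over all genes tested was 0.00. The chaperones varied together from liver to liver, as described further on, so their signs are not separate observations. Pairs of translocation genes varied together less, with a median Pearson's r of 0.08 against 0.59 for chaperone pairs. With part of the Soy-20% + SAA livers left out, the translocation median was 0.31 in 26 livers. Whether the signs of the translocation genes are separate observations was not tested. *Sec61a1*, with 1740, 1861 and 2006 normalized counts in Soy-20% and 2011, 2118 and 2254 in Soy-10%, was the only member whose livers did not overlap here, where 0.597% of all genes lay apart in that direction. Its log2 difference was 0.19 ± 0.05 with an edgeR adjusted p of 0.10.

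The calls against Soy-20% + SAA included the translocation genes *Ssr3* and *Ssr4*, of which *Ssr3* was low in part of the controls. *Ssr3*, a subunit of the translocon-associated protein complex, had 1703, 1841, 1542, 1118, 1152 and 1201 normalized counts in Soy-20% + SAA livers 1 to 6, and 1855, 2108 and 2153 in Soy-10%. All Soy-10% livers were above all controls, as 2.9% of all genes were, and the log2 difference was 0.53 ± 0.12 (edgeR adjusted p = 0.0098). In Soy-20% the gene had 1755, 1979 and 2102, and the difference of Soy-10% from that diet was 0.08 with an interval of −0.04 to 0.21. *Ssr4* had 1217, 1309 and 1553 in Soy-20% + SAA and 1437, 1549 and 1561 in Soy-10% (log2 0.20 ± 0.07, edgeR adjusted p = 0.048), and the call was lost in 10 of 12 fits that left out 1 liver, all but those without Soy-20% + SAA liver 2 or 4, with values from 0.18 to 0.25. It was also lost without the filter on low counts and with the replicate block, each at an edgeR adjusted p of 0.057.

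*Spcs3*, a subunit of the signal peptidase complex, had 431, 433, 174, 62.3, 80.2 and 74.8 normalized counts in Soy-20% + SAA livers 1 to 6. The lowest of the other 24 livers had 285. *Syvn1*, the ubiquitin ligase of ER degradation, had 419, 435, 210, 95.8, 123 and 115, and *Edem1* had 879, 995, 715, 495, 500 and 530. In all 3 genes livers 1 and 2 were the highest of the diet and livers 3 to 6 the lowest. The GC content of the last 200 transcript bases is 22.5% in *Spcs3*, 30.2% in *Ssr3*, 37.2% in *Edem1* and 43.2% in *Syvn1*. Over 35 members, Pearson's r between that content and the log2 difference of Soy-20% + SAA from Soy-20% was 0.48, a description over genes of the same libraries. The part of the GC slope in these levels was tested only through the fits with a covariate and without the 4 livers.

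**Figure D4:**
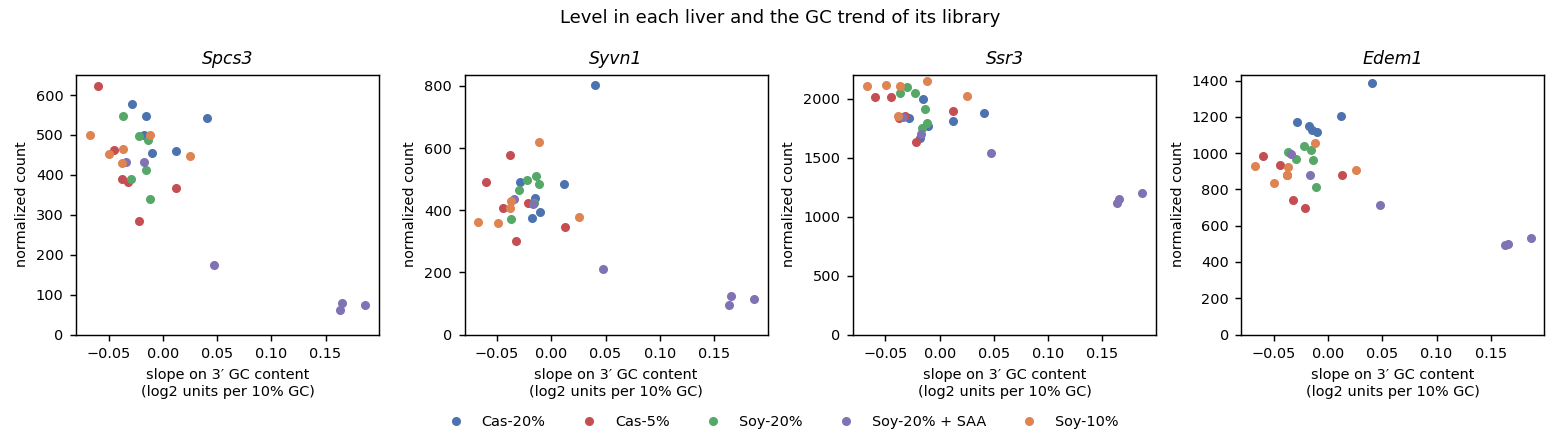
Normalized count (vertical axes, from 0) of *Spcs3*, *Syvn1*, *Ssr3* and *Edem1* in each of 30 livers against the slope of that library on 3′ GC content (horizontal axes, log2 units per 10% GC), coloured by diet. Soy-20% + SAA livers 4 to 6, with slopes above 0.1, have the lowest counts of each gene.

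Adding sulfur amino acids to the soy diet moved none of the 35 members tested past the threshold by edgeR, where 0.00838% of all 11932 genes passed, and *Derl3* was too low for the filter there. An unadjusted p under 0.05 was reached by 9 members, as by 24.2% of all genes. DESeq2 called 4, *Dnajb9*, *Edem1*, *Sec61a1* and *Ssr3*. By edgeR *Dnajb9*, a co-chaperone of BiP, came closest. It had 216, 250 and 271 normalized counts in Soy-20% and 137, 170 and 211 in Soy-20% + SAA. All supplemented livers lay below all Soy-20% livers, as 1.19% of all genes did, with a log2 difference of −0.49 ± 0.10 and an edgeR adjusted p of 0.057. Livers 1 and 2, whose GC slopes lay within the range of the other diets, had 211 and 137.

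Between the control diets, *Edem1* was the 1 member of 36 called by edgeR, and by DESeq2 (2.43% of all 11988 genes tested were called), and 10 members had an unadjusted p under 0.05, against 26.2% of all genes. It was higher in Cas-20% than in Soy-20% + SAA (log2 0.80 ± 0.17, edgeR adjusted p = 0.037), and the livers did not overlap, as 1.5% of all genes in that direction. Without livers 3 to 6 of Soy-20% + SAA the value was 0.34 (edgeR adjusted p = 0.58), and with the GC covariate 0.52 (0.11). *Edem1* in Cas-20%, at 1193 ± 101 (mean ± SD, n = 6), was above its mean in each other diet, from 686 ± 214 in Soy-20% + SAA to 969 ± 81 in Soy-20%. Between the restricted diets, Cas-5% and Soy-10%, none of the 36 was called by edgeR, where 10.7% of 12041 genes were, 4 had an unadjusted p under 0.05, against 25% of all genes, and DESeq2 called 1, *P4hb*. The largest difference there was that of *Derl3*, 0.53 with an interval of −0.08 to 1.13.

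The effect of casein restriction minus that of soy restriction with the supplemented control was tested in 24 livers. It was called by edgeR for 3 members of 36, all negative (8.33%), against 8.69% of all 12532 genes tested and 5.49% in that direction, and 10 had an unadjusted p under 0.05 against 26%. These were *Edem1* at −0.90 ± 0.19 (edgeR adjusted p = 0.0062), *Ssr3* at −0.48 ± 0.14 (0.031) and *Spcs3* at −1.45 ± 0.46 (0.049). DESeq2 called the former 2. With the GC covariate, alone or with the replicate block, the *Edem1* and *Spcs3* calls held. With the GC covariate *Ssr3* was at −0.29 (edgeR adjusted p = 0.092), and without the filter on low counts the edgeR adjusted p of *Spcs3* was 0.052. All 3 are among the genes that were low in Soy-20% + SAA livers 3 to 6. Without those livers none was called by edgeR and 3 had an unadjusted p under 0.05. When soy restriction was taken against Soy-20%, *Edem1* alone was called, at −0.40 (edgeR adjusted p = 0.030), *Ssr3* was at −0.04 and *Spcs3* at −0.35. Leaving out single livers lost the *Spcs3* call in 21 of 24 fits, all but those without Cas-5% liver 1 or Soy-20% + SAA liver 1 or 2, with values from −1.81 to −1.26. It lost the *Ssr3* call in 5, without Cas-5% liver 4, Soy-20% + SAA liver 4, 5 or 6 or Soy-10% liver 3, with values from −0.57 to −0.42, and the *Edem1* call in none.

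The chaperones were also read liver by liver. The mean log2 difference of the 15 chaperones from their means over 30 livers ran from −0.29 to 0.46 in Cas-20%, −0.07 to 0.22 in Cas-5%, −0.26 to 0.13 in Soy-20%, −0.44 to 0.15 in Soy-20% + SAA and −0.17 to 0.26 in Soy-10%. All 15 were above their own mean in Cas-20% liver 2 and in Soy-10% livers 3 and 5. In Soy-20% liver 3 and Soy-20% + SAA liver 5 only 1 of 15 was. Diet means of this score ran from −0.09 to 0.09, and the SDs of single livers within diets from 0.11 to 0.27. Differences between diets in this score were not tested.

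**Figure D5:**
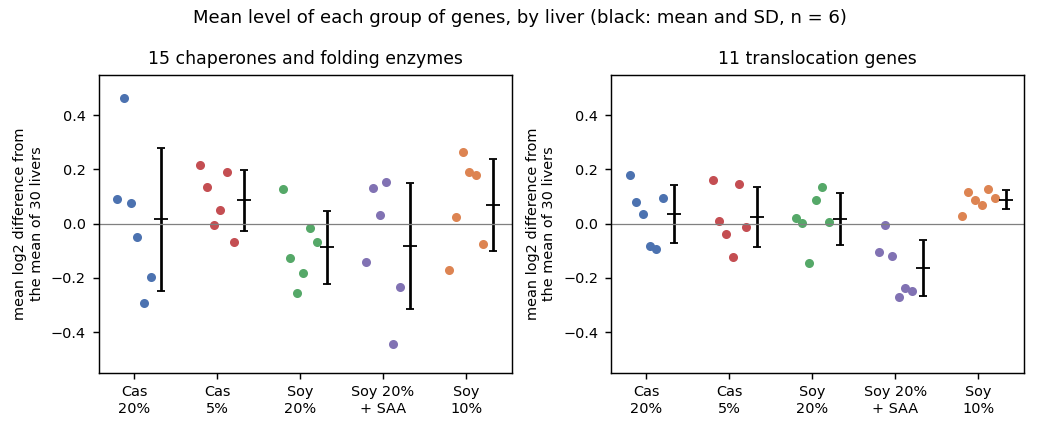
Mean log2 difference from the mean of 30 livers (vertical axis) over the 15 chaperones and folding enzymes and over the 11 translocation genes, 1 point per liver, by diet, with the mean and SD of 6 livers in black. The chaperone points spread from −0.44 to 0.46 and overlap across diets, and Soy-20% + SAA has the lowest translocation mean, −0.16.

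After the diet means were removed, the chaperones varied together across the 30 livers. The median Pearson's r of the 105 chaperone pairs was 0.59, and 68 pairs were over 0.5, while the median over all pairs of genes was 0.00. Without Soy-20% + SAA livers 3 to 6 the median of the chaperone pairs was 0.59 as well. *Hspa5* and *Manf*, a secreted chaperone cofactor, had r = 0.87, *Pdia3* and *Calr*, which act together on glycoproteins, 0.84, and *Hsp90b1*, the ER Hsp90, and *Creld2* 0.84. Pairs of translocation genes had a median of 0.08, or 0.31 in the 26 livers, and pairs of ER degradation genes 0.03, or 0.19 in the 26. *Spcs2*, of the signal peptidase complex, was close to the chaperones, with r = 0.84 to *Manf*. These values describe libraries that share depth and base composition.

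The spread within a diet differed between the roles. The median within-diet SD of log2 levels was 0.26 for chaperones, 0.20 for ER degradation, 0.23 for sensors and 0.15 for translocation, against 0.22 over 12033 genes. Among chaperones it was largest for *Sdf2l1* (0.45), *Creld2* (0.44), *Manf* (0.40) and *Hyou1* (0.33), an ER exchange factor for BiP, and smallest for *P4hb* (0.10). *Spcs1*, a further signal peptidase subunit, had the smallest of all members, 0.09.

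The promoter elements were then set beside the changes. After casein restriction edgeR called 11.6% of all genes higher and 13.3% lower. Of the 11 members with ERSE or ERSE-II, 3 rose (*Derl3*, *Dnajc3* and *Herpud1*) and none fell, and of the 18 with a window but no element 1 rose and 2 fell. These counts are few and the difference between them was not tested. Median log2 changes were 0.12 and 0.00. Against Soy-20% + SAA edgeR called none of the 11 after soy restriction and 5 of the 18, where it called 17% of all genes. Against Soy-20% it called 1 of 11 and none of 18, where it called 0.866% of all genes. *Hspa5*, *Hsp90b1*, *Calr*, *Canx*, *Pdia6* and *Creld2*, which carry ERSE, were called by edgeR in none of the comparisons, and DESeq2 called *Calr* over the 5 diets.

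Other genes of the same pathways were read from 6 further lists. Their counts stand beside the 11.6% of all genes that edgeR called higher and the 13.3% it called lower after casein restriction. Of 38 other folding enzymes and co-chaperones 2 rose and 4 fell, among them *Mogs*, the glucosidase that starts glycan trimming, at 0.39 ± 0.09, and *Dnajb12*, a membrane co-chaperone, at −0.32 ± 0.07. Of 24 other ER degradation genes none rose and 2 fell, *Os9*, a lectin of the degradation complex, at −0.35 ± 0.07 and *Ube2j2*, a ubiquitin-conjugating enzyme, at −0.34 ± 0.10. Of 12 other genes of unfolded protein response signalling 1 rose, *Trib3*, a target of ATF4 and CHOP, at 0.69 ± 0.20, and 1 fell, *Atf6b*, at −0.39 ± 0.14.

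Of 24 other translocation and targeting genes 2 rose and 1 fell after casein restriction, with *Sec61a2*, another gene for the channel subunit, at 0.64 ± 0.14 and *Emc2*, of the ER membrane complex, at −0.32 ± 0.08. Of 12 oligosaccharyltransferase genes 1 rose, *Stt3b*, a catalytic subunit, at 0.33 ± 0.06, and 2 fell, among them *Tusc3* at −0.39 ± 0.12. Median log2 changes of these 5 lists ran from −0.08 to 0.06 after casein restriction, against 0.02 over all genes tested. After soy restriction with the supplemented control these 5 lists held 4 higher and 1 lower of 37, 3 and 1 of 24, 1 and 0 of 12, 4 and 0 of 24, and 1 and 0 of 12, where 8.51% of all genes were called higher and 8.47% lower. *Cnpy4*, of the folding list, was at 0.95 ± 0.18 and *Txndc5*, a disulfide isomerase, at 0.95 ± 0.25. *Ppp1r15b*, a regulatory subunit of the phosphatase that acts on eIF2α, was at 1.06 ± 0.27. *Srpr*, the receptor of the signal recognition particle, was at 0.57 ± 0.13. *Vcp*, of the ER degradation list, was lower, at −0.32 ± 0.07. All of these values include Soy-20% + SAA livers 3 to 6. Mean normalized counts of *Txndc5* were 560 in Soy-20%, 307 in Soy-20% + SAA and 592 in Soy-10%. In that order *Ppp1r15b* had 935, 450 and 938, and *Srpr* had 618, 465 and 692. *Cnpy4* had 59.7, 32.8 and 63.0, and *Vcp* had 3015, 3705 and 2968. Against Soy-20% edgeR called none of the 109 genes tested in the 5 lists, of which 11 had an unadjusted p under 0.05 and DESeq2 called 2.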

How the data were processed

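The authors sequenced QuantSeq 3′ FWD libraries (75 bp reads in the paper, 50 bp in the labels) and ran the Bluebee Lexogen pipeline 2.3.6; aligner, counter and annotation release are not given in the sources used here. The submitters' processing notes name GRCm38/mm10, R 4.0.3 and DESeq2 1.30. The deposited raw counts (14173 genes) and the deposited normalized signal, which the authors made by dividing counts by size factors, were used. Each liver is 1 mouse.

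Diets were compared in pairs, and over 24 and 30 livers, with edgeR 4.0.16 in R 4.3.3 (filterByExpr, TMM, quasi-likelihood F test, Benjamini-Hochberg at 0.05); DESeq2 1.42.0 was an alternative, and the script was tested on simulated data. GC content is the mean over GENCODE M21 transcripts. Named genes are those called in a restriction comparison or the difference, the 3 smallest p per role over 5 diets, and up to 2 per further list and restriction; other members named were chosen after their values were seen. The members and lists were chosen with earlier results of these data known.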

Additional observations from a re-analysis of the deposited data

Results flagged for a closer look

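Within a diet of 6 livers, a level was singled out where the highest or lowest liver stood off from the nearest of the others by more than 0.625 of the whole range (Dixon's 95% value). This held for 19 of 220 groups of levels, where about 11, or 1 in 20, would arise by chance with normally distributed levels. The groups share the same 30 livers and the chaperones varied together, so the groups are not independent. Whether 19 exceeds 11 was not tested. Cas-20% liver 2 was high in *Pdia4* (1195 normalized counts, the others 672 to 858), *Syvn1* (801, 376 to 491) and *Edem1* (1389, 1114 to 1206). Soy-10% liver 3 was high in *Syvn1* (619, 358 to 431) and *Atf6* (612, 481 to 525). Both livers are among those in which all 15 chaperones were above their own mean. Soy-20% + SAA liver 4 was high in *Hspa5* (13666, 8020 to 9964) and *Ssr4* (1553, 1217 to 1332), and liver 1 of that diet in *Atf6* (657, 414 to 492).

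In Soy-20%, liver 3 was low in *Pdia6* (2456, 3048 to 3398) and *Edem1* (815, 962 to 1041), and liver 5 was high in *Atf6* (604, 509 to 544). In Soy-10%, liver 1 was low in *Herpud1* (1889, 2694 to 2903) and *Ssr4* (1437, 1535 to 1561), and liver 6 was high in *Derl1* (1390, 1192 to 1247).

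Sums of cell type markers stood off in 5 livers. Pancreatic acinar markers summed to 9318 in Soy-10% liver 4, against 207 to 370 in the others, plasma and B cell markers to 334 in Cas-5% liver 3 (232 to 257), Kupffer cell markers to 5366 in Soy-10% liver 6 (3080 to 3596), stellate markers to 4807 in Soy-20% + SAA liver 2 (3288 to 3746) and red blood cell markers to 36652 in Soy-10% liver 2 (6738 to 17922). Their part in the members' levels was not tested beyond leaving out single livers.

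The effects of casein and soy restriction differed for *Edem1* by −0.90, for *Ssr3* by −0.48 and for *Spcs3* by −1.45 on the log2 scale, with edgeR adjusted p of 0.0062, 0.031 and 0.049 for the difference itself. All 3 genes were low in Soy-20% + SAA livers 3 to 6.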

How the results depend on the processing

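The 16 calls of single members gave 356 values under other settings. All of these kept their direction, and 248 stayed past the threshold. Many come from fits that leave out 1 liver and share all others. The setting that requires a log2 change of 1 reused the main fit, so direction could not change there. The number of members called moved as follows, with the cause not tested unless the setting removes samples or raises the threshold. With an absolute log2 change of 1 required beside the adjusted p, casein restriction kept 1 (*Derl3*), soy restriction with the supplemented control and the control diets 0 (10 each with an unadjusted edgeR p under 0.05) and the difference of effects 1. Without Soy-20% + SAA livers 3 to 6, soy restriction with the supplemented control and the control diets each had 0, the difference 0 (6, 3 and 3 with an unadjusted edgeR p under 0.05) and the 5 diets 5. With the GC slope as a covariate, soy restriction with the supplemented control and the control diets had 0 (4 each with an unadjusted p under 0.05). With all 30 livers in 1 fit, soy restriction had 9 with the supplemented and 0 (5 with an unadjusted p under 0.05) with the unsupplemented control, supplementation 7 and the control diets 5. DESeq2 called 3 in soy restriction with the unsupplemented control, 4 in supplementation and 1 between restricted diets. Taking soy restriction against Soy-20% left 1 in the difference.

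Replicate numbers were not taken as pairs. Same-numbered livers of the casein diets correlated at −0.08 to 0.07 after removal of group means, with 0 of 6 pairs over 0.1. In soy restriction with the supplemented control they correlated at −0.05 to 0.19, with 2 of 6 over 0.1. Over the 5 diets 10 of 60 were over 0.1, and no comparison had all its pairs over 0.1. A factor shared by some same-numbered livers was tested only through the fits with the replicate block. The replicate block gave 7 members in casein restriction, 6 and 1 in soy restriction with the supplemented and unsupplemented control, 0 in supplementation and in the restricted diets (8 and 5 with an unadjusted p under 0.05), 3 in the control diets, 4 in the difference and 12 over 5 diets. With the replicate block and the GC slope together, casein restriction had 2, soy restriction 0 with either control (3 and 10 with an unadjusted p under 0.05) and the control diets 4. Leaving out 1 liver gave 5 to 9 members in casein restriction, 2 to 8 and 0 to 1 in soy restriction with the supplemented and unsupplemented control, and 1 to 6 in the difference. Without Soy-10% liver 4, a setting chosen after seeing the data, 11 members were called over the 5 diets and 0 between the restricted diets (4 with an unadjusted p under 0.05). Few reads limit *Derl3*, with 5 to 65 raw counts per liver.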

Other observations

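Transport from the ER to the Golgi apparatus, the step after folding, was read from a list of 33 genes, 32 of which were tested. After casein restriction 3 were higher and 7 lower by edgeR (adjusted p of 0.05 or less). Of all genes 24.9% were called, 11.6% higher and 13.3% lower. *Sec16b*, which organizes ER exit sites, was at −0.46 ± 0.08 (log2 fold change ± SE) and *Sec24a*, a cargo adaptor of the COPII coat, at −0.46 ± 0.08. In both genes all Cas-5% livers lay below all Cas-20% livers, as in 7.73% of all genes. After soy restriction with the supplemented control 3 were higher and 5 lower. Of all genes 17% were called there, 8.51% higher and 8.47% lower. *Sec24a* was at −0.32 ± 0.06 there and *Sar1b*, the GTPase that starts coat assembly and is needed for lipoprotein export, at −0.30 ± 0.07. List medians were −0.09 after casein restriction and −0.04 after soy restriction, against 0.02 and −0.01 over all genes tested. Against Soy-20% none of the 32 was called by edgeR, 3 had an unadjusted p under 0.05 and DESeq2 called 0.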
